A study of Mus musculus with 4 samples.

Results

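The genes described here are 10 members of the vascular growth factor systems and the endothelial cell surface, taken by gene symbol from the 24054 symbols in the table: the ligands Vegfa, Vegfb and Vegfc, their receptors Kdr and Flt1, the ligands Angpt1 and Angpt2 with their receptor Tek, and the junction proteins Cdh5 and Pecam1. All 10 were listed and all 10 passed the filter on low counts. They were measured by bulk RNA-seq in soleus, a slow hindlimb muscle, from female mdx mice, which lack dystrophin (strain C57BL/10ScSn-DMDmdx/J). Infusions into the femoral vein began at 8 weeks of age and were repeated monthly up to the 12-month endpoint. 2 muscles came from mice given mCDCs, mouse cardiosphere-derived cells grown to passage 5 from the heart of a non-dystrophic female C57BL/10ScSn/J mouse, and 2 from mice given the culture medium alone (vehicle), so that both groups carried the same mutation. All mCDC doses trace to cells of that 1 heart. Totals of the expected counts ran from 22481391 to 27187425, and levels are given as CPM, the library-size-scaled counts after TMM normalization (trimmed mean of M-values). Slow fiber genes led the tissue, with summed levels of 73505 to 89268 CPM over 7 genes such as Myh7, against 24139 to 31630 CPM over 8 fast fiber genes.

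VEGF-A, the product of Vegfa, signals to endothelial cells mainly through KDR (VEGFR2), while FLT1 (VEGFR1) binds VEGF-A tightly with little signal of its own and, in a secreted form, holds it back. Among these receptor tyrosine kinases, VEGF-B and placental growth factor bind only FLT1, and VEGF-C acts on lymphatic endothelium through FLT4. Angiopoietin-1, made largely by cells around the vessel, activates TEK (TIE2) and stabilizes vessels, and angiopoietin-2 from endothelial cells can oppose it. VE-cadherin (Cdh5) and PECAM-1 (Pecam1) join endothelial cells to each other. In skeletal muscle, the fibers themselves are a major source of VEGF-A and VEGF-B.

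Vehicle replicate 2 stood apart for endothelial genes, and results are given with and without it. It held the highest level of 6 of the 10 genes, Vegfc, Kdr, Flt1, Tek, Cdh5 and Pecam1, whereas it was the highest library for 29.4% of the 13652 genes tested. For these 6 genes it lay between 1.52 and 2.18 times the highest of the other 3 libraries. RNA of the whole muscle was measured, so fewer endothelial cells and less RNA per endothelial cell cannot be told apart. The libraries are called replicates as in the sample titles. The labels do not say whether the 2 muscles of a group came from separate mice, and p-values measure only the spread between these samples.

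Of the 10 genes, 0 were called higher and 1, Flt1, was called lower in mCDC muscles when a call asked for more than a 1.5-fold change and an unadjusted p below 0.05, as the study's methods do. Among all genes tested, 1.26% were called higher and 2.74% lower by edgeR's quasi-likelihood test, so the members' counts were near that background. No gene in the whole table, the 10 included, had a Benjamini-Hochberg adjusted p under 0.05 with this test, although 947 genes had an unadjusted p under 0.05. DESeq2 gave 48 genes and edgeR's likelihood ratio test 66 genes with an adjusted p under 0.05, and 0 of the 10 were among them. The smallest adjusted p of a member was that of Flt1 in both, 0.627 with DESeq2 and 0.499 with the likelihood ratio test. The median log2 fold change of the 10 genes was -0.40, against -0.0094 for all genes tested. Without vehicle replicate 2 the median of the 10 was 0.089, and Angpt1, not Flt1, was called lower.

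**Figure D1:**
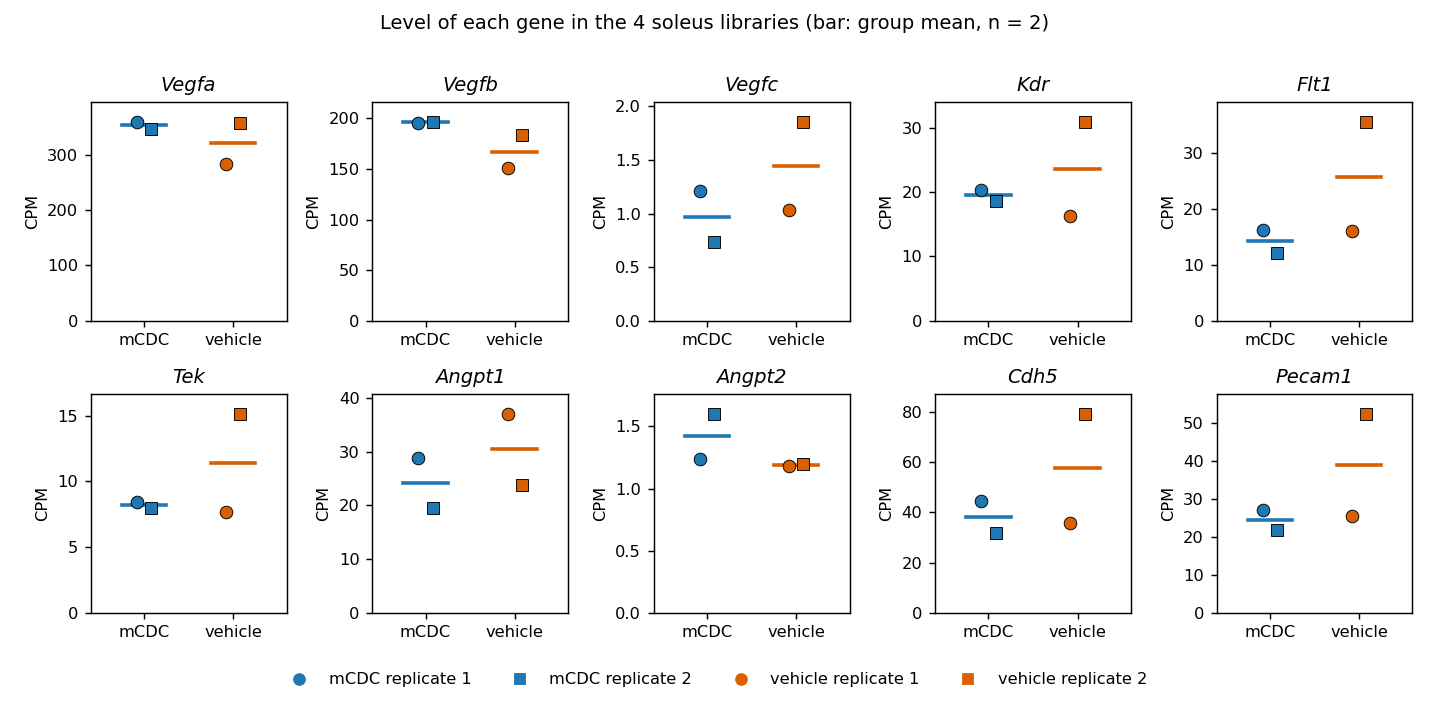
Level of each of the 10 genes in CPM (vertical axis, from 0) in the 2 mCDC and 2 vehicle libraries. Points are libraries and bars are group means (n = 2). Vehicle replicate 2 lies above the other 3 libraries for Vegfc, Kdr, Flt1, Tek, Cdh5 and Pecam1. The groups do not overlap for Vegfb and Angpt2, where both mCDC libraries lie above, as for 19.2% of all genes tested.

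The VEGF ligands were made at very unequal levels. Vegfa had 360 and 348 CPM after mCDCs (replicates 1 and 2) against 284 and 359 CPM after vehicle (replicates 1 and 2). Vehicle replicate 1 was the low library and the other 3 lay within a narrow band, so that the groups overlapped. The log2 fold change was 0.14 (95% interval -0.21 to 0.49), which leaves out a 1.5-fold change in either direction, and edgeR's adjusted p was 0.842. Vegfb had 195 and 196 CPM with mCDCs against 151 and 184 CPM with vehicle. Both mCDC libraries lay above both vehicle libraries, as for 19.2% of all genes tested. Its log2 fold change was 0.23 (standard error 0.14, edgeR adjusted p = 0.763). Without vehicle replicate 2 it was 0.38, still under 1.5-fold, and without vehicle replicate 1 it was 0.098. Vegfc was near the limit of detection, with 32 and 16 expected counts with mCDCs against 27 and 51 with vehicle. These correspond to 1.21, 0.73, 1.03 and 1.86 CPM, and the groups overlapped (log2 fold change -0.55, 95% interval -1.56 to 0.46). Per kilobase of the longest basic GENCODE transcript, Vegfb (153 CPM per kilobase in mCDC and 130 in vehicle muscles) lay above Vegfa (103 and 93.2), and Vegfc was at 0.40 and 0.59. The length of the transcripts in the muscle is not known, and the longest Vegfa model is 3451 bases against 1281 for Vegfb, which bears on their order.

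The VEGF and angiopoietin receptors were all highest in vehicle replicate 2, and in the other 3 libraries Flt1 was lowest in mCDC replicate 2 while Kdr and Tek were lowest in vehicle replicate 1. RefSeq promoter sequence (GRCm38.p6) was held for 6 of the 10 genes. The windows of the 3 receptors, which shared their highest library, are shown on the strand of the gene. Each holds the 250 bases before its start. Vegfc was also highest in that library, and its window is not printed. Flt1 lies at chr5:147726012-147726261 and Kdr at chr5:75978456-75978705, both on the minus strand, and Tek at chr4:94739039-94739288 on the plus strand. RefSeq's gene spans reach further upstream than these starts, by 427 bases for Flt1, 617 for Kdr and 203 for Tek. The Flt1 and Kdr windows thus lie wholly within the annotated gene spans, and the Tek window lies mostly within its own. Capitals mark GGAAG, or its reverse complement CTTCC, a longer form of the core GGAA bound by ETS factors, a family with prominent members in endothelial cells. GGAA followed by other letters, which the Kdr and Tek windows also hold on 1 strand or the other, was neither marked nor counted.
Flt1: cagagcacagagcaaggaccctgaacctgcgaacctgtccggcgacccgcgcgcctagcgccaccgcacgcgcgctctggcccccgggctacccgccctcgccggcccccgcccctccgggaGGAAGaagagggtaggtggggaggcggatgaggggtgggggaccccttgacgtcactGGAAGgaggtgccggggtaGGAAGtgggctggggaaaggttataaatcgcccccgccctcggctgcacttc
Kdr: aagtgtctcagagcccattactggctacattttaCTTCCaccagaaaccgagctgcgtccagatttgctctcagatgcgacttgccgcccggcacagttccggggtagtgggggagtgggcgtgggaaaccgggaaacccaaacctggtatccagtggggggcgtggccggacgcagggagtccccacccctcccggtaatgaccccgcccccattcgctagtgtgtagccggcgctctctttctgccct
Tek: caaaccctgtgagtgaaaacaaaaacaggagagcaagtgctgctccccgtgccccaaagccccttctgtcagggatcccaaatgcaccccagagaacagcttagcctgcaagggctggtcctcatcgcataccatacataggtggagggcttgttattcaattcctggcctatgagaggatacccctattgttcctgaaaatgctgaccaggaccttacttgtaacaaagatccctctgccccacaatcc

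The letters GGAAG were found on either strand at 3 places in the Flt1 window, 1 in the Kdr window and 0 in the Tek window. Among 32851 RefSeq promoter windows of the same length, 64.1% held at least 1 match and 10.7% held 3 or more. The hypoxia response core ACGTG was in none of these 3 windows and in 16.6% of all windows. The GC box GGGCGG was matched at 3 places for Flt1, 2 for Kdr and 0 for Tek, and 32.7% of all windows held it. In the Vegfc window, not printed, there were 0 GGAAG, 0 ACGTG and 2 GGGCGG matches. These matches describe the letters in the windows and are not evidence of binding.

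Flt1, the receptor that restrains VEGF-A, had 16.3 and 12.2 CPM after mCDCs (replicates 1 and 2) against 16.0 and 35.5 CPM after vehicle (replicates 1 and 2). 3 libraries lay close together and vehicle replicate 2 was 2.18 times the highest of them, so the groups overlapped although the gene was called. The group means were 14.2 ± 2.9 CPM (SD, n = 2) and 25.8 ± 13.8 CPM (SD, n = 2). The log2 fold change was -0.86 (95% interval -1.65 to -0.067, edgeR unadjusted p = 0.0369, adjusted p = 0.713). Without vehicle replicate 2 it was -0.17 (edgeR unadjusted p = 0.480) and the call was lost. The call was also lost without mCDC replicate 2 (-0.66), with the replicate number as a block (-0.76, edgeR unadjusted p = 0.0726) and with the trend on length and GC content removed (-0.68). Counts per gene do not separate the membrane-bound from the secreted form of FLT1.

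Kdr, which carries most of the VEGF-A signal, had 20.3 and 18.6 CPM with mCDCs against 16.3 and 30.9 CPM with vehicle. The lowest and the highest library were both vehicle libraries. Its log2 fold change was -0.28 (standard error 0.28, edgeR adjusted p = 0.827), and it was 0.26 without vehicle replicate 2. Tek, the angiopoietin receptor, showed the same order, with 8.45 and 7.99 CPM with mCDCs against 7.71 and 15.1 CPM with vehicle. The log2 fold change of Tek was -0.47 (95% interval -1.17 to 0.22) and it was 0.092 without vehicle replicate 2. Per kilobase, mCDC and vehicle muscles had 3.29 and 3.98 CPM of Kdr, 2.06 and 3.74 of Flt1, and 1.77 and 2.45 of Tek.

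The angiopoietins did not follow the receptors. Angpt1, the agonist of TEK, had 28.7 and 19.4 CPM after mCDCs (replicates 1 and 2) against 37.0 and 23.8 CPM after vehicle (replicates 1 and 2). Here vehicle replicate 1 was the highest library and mCDC replicate 2 the lowest, and the groups overlapped. For Angpt1 the log2 fold change came to -0.33 (SE 0.26, edgeR adjusted p = 0.782). With each library left out in turn it ran from -0.65 to 0.020, and it was called lower without mCDC replicate 1 and without vehicle replicate 2 (-0.62, edgeR unadjusted p = 0.0459). Angpt2 rested on 31.0 to 35.0 expected counts per library, or 1.24 and 1.6 CPM with mCDCs against 1.18 and 1.2 CPM with vehicle. Both mCDC libraries were above both vehicle libraries by a small margin, as for 19.2% of all genes tested. The interval of its log2 fold change was wide, from -0.54 to 1.03, around 0.25. Angpt2 lies within Mcph1, a gene on the opposite strand, and Angpt1 and Cdh5 overlap the annotated antisense genes Gm17473 and Gm29682. The sources used here do not give whether strand was used in counting, so reads of such partners may be mixed.

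The junction genes were the most abundant endothelial members per kilobase. Cdh5 had 44.4 and 31.7 CPM after mCDCs (replicates 1 and 2) against 35.9 and 79.2 CPM after vehicle (replicates 1 and 2). Pecam1 had 27.1 and 22 CPM with mCDCs against 25.5 and 52.4 CPM with vehicle. In both genes vehicle replicate 1 lay between the mCDC libraries and only vehicle replicate 2 was high. The log2 fold changes were -0.59 for Cdh5 (95% interval -1.37 to 0.18) and -0.67 for Pecam1 (95% interval -1.37 to 0.037), with edgeR adjusted p of 0.746 and 0.724. Without vehicle replicate 2 they were 0.085 and -0.054. DESeq2 called Pecam1 as well as Flt1 lower at unadjusted p (Pecam1 log2 fold change -0.65, unadjusted p = 0.0227), as did edgeR's likelihood ratio test, and neither tool called Cdh5. Without vehicle replicate 1 the calls were Kdr, Flt1, Tek, Cdh5 and Pecam1, all lower.

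**Figure D2:**
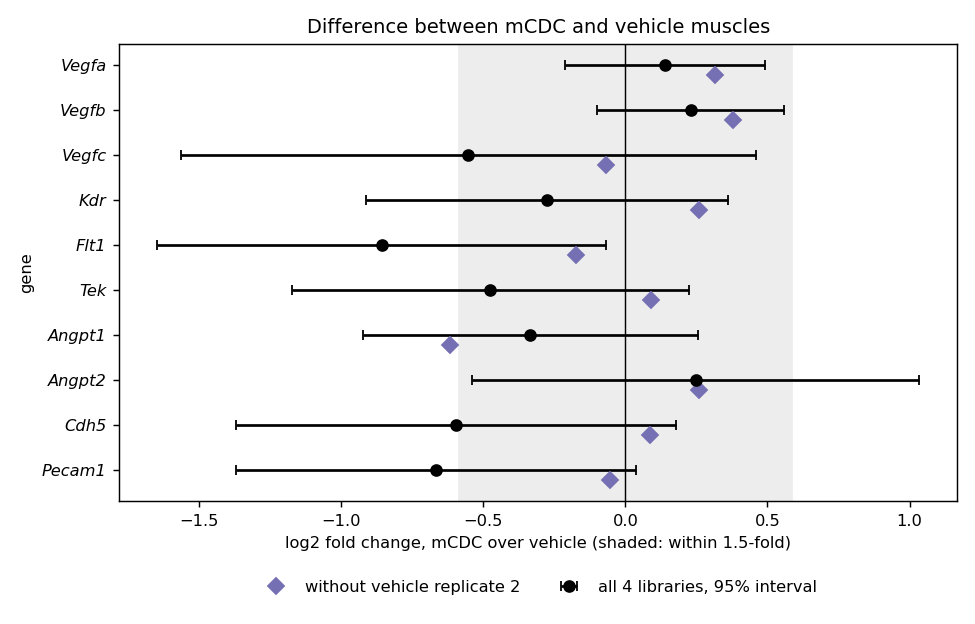
Log2 fold change of mCDC over vehicle (horizontal axis) for each gene. Black points with bars are the values and 95% intervals from all 4 libraries and diamonds are the values without vehicle replicate 2; the shaded band is within 1.5-fold. The bar of Flt1 is the only one of the 10 that leaves out 0, and the diamonds of Kdr, Tek and Cdh5 lie on the other side of 0.

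Ratios of a pair of genes within a library do not depend on how libraries are scaled. 7 ratios were compared with an exact two-sided permutation test over the 4 libraries, which could not give a p below 0.333. Flt1 to Kdr was 0.802 and 0.652 with mCDCs against 0.986 and 1.15 with vehicle. Both mCDC libraries lay below both vehicle libraries (difference of log2 ratios -0.56, exact permutation p = 0.333, adjusted over the 7 ratios p = 0.583). Of all other genes tested, 4.78% had a ratio to Kdr that separated in this direction. The difference was -0.45 without vehicle replicate 2 and ran from -0.71 to -0.41 with each library left out.

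Flt1 to Cdh5 was 0.367 and 0.383 with mCDCs against 0.447 and 0.449 with vehicle. The ratio was almost equal in both vehicle libraries, although the level of each gene differed by more than 2-fold between them. The log2 difference was -0.26 (exact permutation p = 0.333) and -0.25 without vehicle replicate 2, and 1.07% of genes tested had a ratio to Cdh5 that separated in this direction. Kdr to Cdh5 was 0.457 and 0.587 with mCDCs against 0.453 and 0.390 with vehicle. It was higher in both mCDC libraries by a slight margin (log2 difference 0.30), as were the ratios to Cdh5 of 11.1% of genes tested. The ratios of Tek and Pecam1 to Cdh5 overlapped between the groups, from 0.190 to 0.252 and from 0.610 to 0.710. Vegfa to Vegfb had the narrowest range of the 7 ratios, 1.1-fold over the 4 libraries, from 1.77 to 1.84 in mCDC and from 1.89 to 1.96 in vehicle muscles (log2 difference -0.09), and 42.9% of genes tested had a ratio to Vegfb that separated in this direction. Angpt2 to Angpt1 was 0.0431 and 0.0824 with mCDCs against 0.0320 and 0.0504 with vehicle, and overlapped (exact permutation p = 0.667). Several of these ratios share a gene and are not independent of each other.

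**Figure D3:**
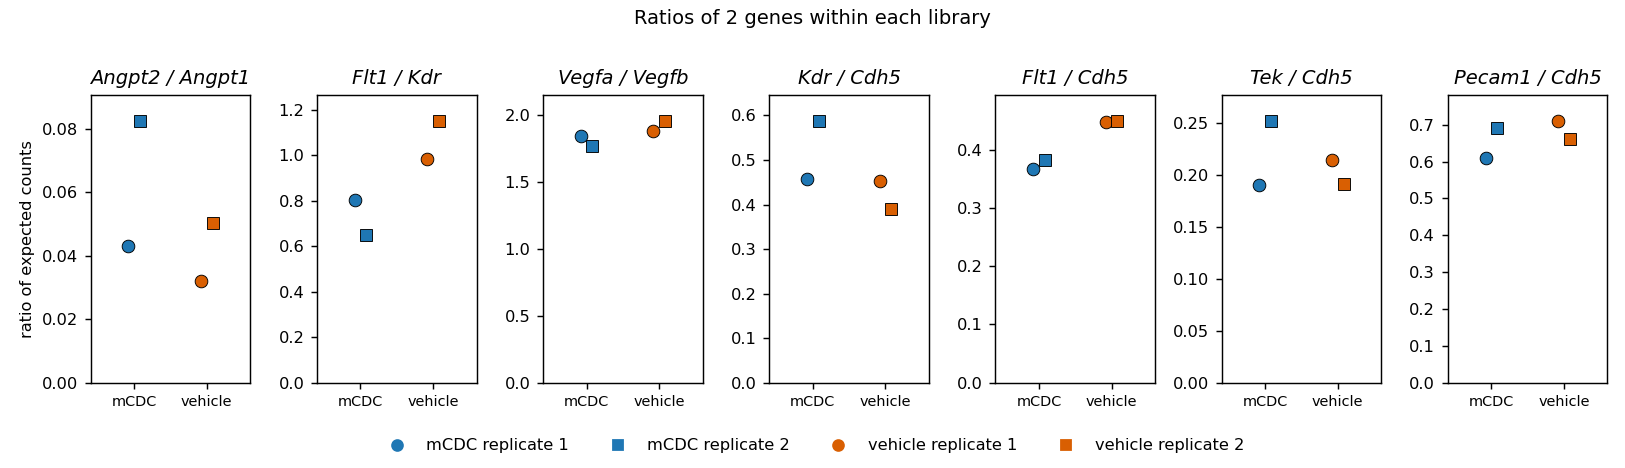
Ratio of the expected counts of 2 genes within each library (vertical axes, from 0), with points for the 2 mCDC and 2 vehicle libraries. Flt1 to Kdr and Flt1 to Cdh5 lie lower in both mCDC libraries, at most 0.802 and 0.383, than in both vehicle libraries, at least 0.986 and 0.447.

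The pattern of the endothelial members was shared by a wider list of endothelial genes. Of 39 such genes, all tested, 6 were called lower (Gpihbp1, Ptprb, S1pr1, Sox17, Tal1 and Cyyr1) and 0 higher, with a median log2 fold change of -0.50, against 2.74% called lower among all genes. Vehicle replicate 2 was the highest library for 36 of the 39. Their summed level was 646 and 578 CPM in mCDC replicates 1 and 2, 634 CPM in vehicle replicate 1 and 1014 CPM in vehicle replicate 2. When that last library was left out the median was 0.10, with 3 genes called higher (Aplnr, Cldn5 and Egfl7) and S1pr1 lower. Without vehicle replicate 1 it was -0.96, with 32 called lower. S1pr1, the endothelial receptor for sphingosine 1-phosphate, was thus called with and without vehicle replicate 2. It had 12.7 and 10.8 CPM with mCDCs against 18.5 and 26.3 CPM with vehicle (log2 fold change -0.93, standard error 0.21, edgeR adjusted p = 0.566), and -0.66 without vehicle replicate 2. The arterial transcription factor Sox17 (6.29 and 6.94 against 9.65 and 15.9 CPM) and Gpihbp1, which anchors lipoprotein lipase to capillaries (5.87 and 8.54 against 9.20 and 19.6 CPM), had log2 fold changes of -0.95 and -1.0. Without vehicle replicate 2 those were -0.55 and -0.36 and neither was called. The endothelial genes with the highest levels, Fabp4 and Palmd, had -0.50 and -0.15 and were not called, and Palmd, highest in vehicle replicate 1, was among the 3 not highest in vehicle replicate 2.

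Vehicle replicate 2 was the highest library for 11 of 14 arterial and tip cell genes, 7 of 9 venous genes and 4 of 9 lymphatic genes. Over all genes tested that share was 29.4%, and the difference between these lists was not tested. Among all genes tested 2.74% were called lower, and of 14 tested arterial and tip cell genes 1 was, Sox17 again. The median of these 14 was -0.35, and 0.029 without vehicle replicate 2. Of 9 tested venous genes, 1 was called lower, Vwf, which encodes von Willebrand factor (9.54 and 7.08 against 12.2 and 18.8 CPM, log2 fold change -0.90), and the median was -0.18. Without vehicle replicate 2 Vwf was at -0.55 and not called, the venous median was 0.26, and Aplnr was called higher. Ephb4 and Nr2f2, the venous genes with the highest levels, had -0.27 and -0.18, while Efnb2, the arterial partner of Ephb4, had -0.34. Of 9 tested lymphatic genes, 3 were called lower: Prox1, Reln and Flt4. The transcription factor Prox1 had 4.54 and 3.15 against 9.81 and 4.73 CPM, and Reln 1.06 and 0.73 against 1.98 and 1.93 CPM. Flt4, the receptor for VEGF-C, had 3.64 and 3.47 against 4.58 and 7.28 CPM. The log2 fold changes of Prox1, Reln and Flt4 were -0.91, -1.11 and -0.74, and the list median was -0.62. Prox1 was highest in vehicle replicate 1, and Prox1 and Reln were called without vehicle replicate 2, at -1.34 and -1.13, where Flt4 was at -0.37 and not called and the list median was -0.42. Without mCDC replicate 2, 0 of the lymphatic genes were called, with Prox1 at -0.67, Reln at -0.88 and Flt4 at -0.71, all still over 1.5-fold. Fxyd6, which supplied most of the summed level of that list, had -0.08, and Pdpn, which other cell types make too, had 0.36. RNA of the whole muscle does not show which cells made Prox1 or the other genes of the list. Without vehicle replicate 1 Prox1 was at -0.29 and not called, and DESeq2 did not call Reln.

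**Figure D4:**
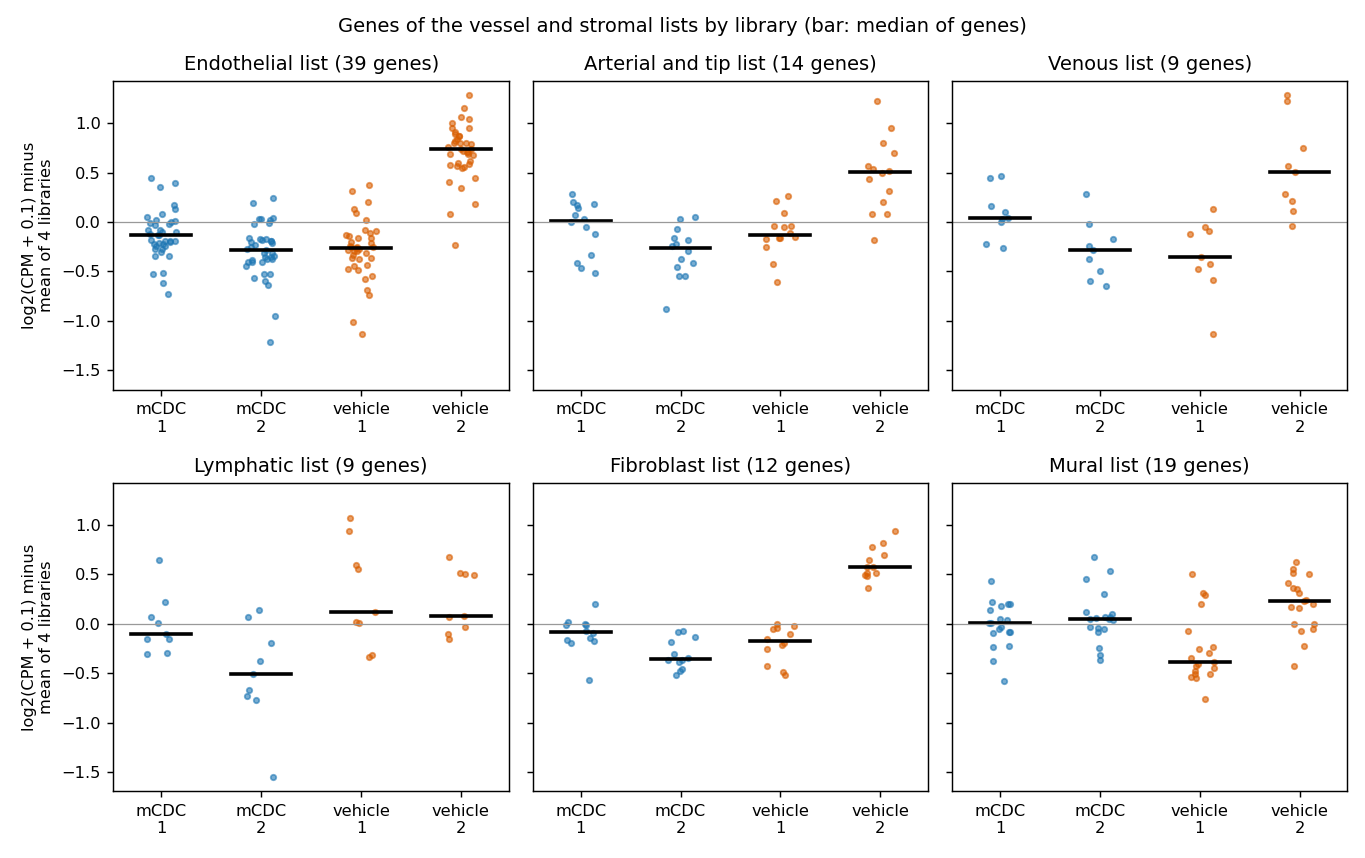
Each tested gene of 6 cell type lists, as log2(CPM + 0.1) minus its mean over the 4 libraries (vertical axis), by library. Points are genes and bars their medians. In the endothelial list 36 of 39 genes and in the fibroblast list 12 of 12 are highest in vehicle replicate 2, against 4 of 9 lymphatic and 11 of 19 mural genes.

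Genes listed for some other cell types were also mostly highest in vehicle replicate 2. It was the highest library for 0 of 4 platelet, 0 of 7 slow fiber and 2 of 5 satellite cell genes. Over all genes tested, 29.4% were highest there, 2.74% were called lower and 1.26% higher. All 12 fibroblast genes were highest in vehicle replicate 2, with summed levels of 752 and 606 CPM with mCDCs against 715 and 1143 CPM with vehicle, and 3 were called lower (Lum, Pdgfra and Smoc2, median of the list -0.47) with 0 called without that library. The red cell genes were also highest there, 6 of 6 with Hbb-b2 and Hbb-bt counted once, since their counts were identical in every library (427 and 441 against 382 and 697 CPM in sum), and Hba-a2 was called lower. Hba-a2 was high in both vehicle libraries (14.5 and 14.8 against 28.6 and 31.7 CPM) and stayed called without vehicle replicate 2, at -0.97. Hba-a2 and Hba-a1 are near-identical, so the division of reads between them is uncertain. Of 9 tested leukocyte genes, 7 were highest there, with Csf1r called lower (log2 fold change -0.67) and Cd68 higher (1.49). The Cd68 groups overlapped (4.13 and 15.4 against 2.71 and 4.15 CPM), it was at 0.27 and not called without mCDC replicate 2, and Csf1r was at -0.30 and not called without vehicle replicate 2. DESeq2 called neither, at 1.52 for Cd68 and -0.66 for Csf1r. Platelet genes ran from 7.92 to 9.29 CPM in sum, with 0 called. Mural cells, the pericytes and smooth muscle around the vessel, had a median of 0.011 over 19 genes, 0.44 without vehicle replicate 2, and 11 of the 19 were highest in vehicle replicate 2. Rgs5, a pericyte gene, was called lower (14.4 and 13.2 against 20.8 and 21.2 CPM, log2 fold change -0.60, -0.59 without vehicle replicate 2, and just under 1.5-fold without mCDC replicate 2, at -0.54, and after removing the trend on length and GC content, at -0.56), and Cspg4, which encodes NG2, higher (61.7 and 105 against 51.8 and 56.2 CPM, 0.63, carried by mCDC replicate 2 and 0.19 without it). Synpo2 and Abcc9, the most abundant genes of that list, had 0.08 and -0.20. Which cells of the muscle made them is not shown by these data. Slow fiber genes had 0 called with a median of 0.20, fast fiber genes 0 called with 0.019, and satellite cell genes 2 called higher (Pax7 and Myod1). Neither of these was called without mCDC replicate 1, where Myod1 went from 0.84 to 0.44 and Pax7 from 0.76 to 0.73, and 1 of them was called in each other fit with a library left out and with DESeq2. The fast fiber list was not steady over libraries: 3 of its 8 genes were called lower without mCDC replicate 1, 2 higher without mCDC replicate 2 and 1 lower with the replicate block, its median ran from -0.25 to 0.35 with each library left out, and Myh4, a fast myosin, had 2096 and 47.5 CPM with mCDCs. Early response genes, which also follow handling of the tissue, had a median of 0.43 with 2 of 12 called higher, Atf3 (1.65) and Hspa1b (0.86). Atf3 was at 0.74, still called, without mCDC replicate 2, and Hspa1b at 0.58 and not called without vehicle replicate 2. With each library left out, from 3 to 5 genes of that list were called higher, at most 1 lower, and its median ran from 0.15 to 0.61, and 4 were called higher with the replicate block. The part of these cells and of handling in the endothelial values was not tested.

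Among 26 tested genes around the VEGF and angiopoietin receptors, 5 were called lower and 1 higher, against 2.74% and 1.26% of all genes tested. The counts were 10 lower and 3 higher without vehicle replicate 1, and 3 lower and 0 higher without mCDC replicate 2. Of the 28 genes listed, 6 stood on another list too, and the lower calls of Flt4 and Ptprb are those already counted among the lymphatic and endothelial genes. Plcg1, the phospholipase that binds activated KDR, had 17.1 and 15.8 CPM with mCDCs against 25.4 and 27 CPM with vehicle. The groups were well apart and both vehicle libraries were alike, unlike the receptors themselves. The log2 fold change of Plcg1 was -0.67 (standard error 0.15, edgeR adjusted p = 0.566), and it stayed called with each library left out, from -0.73 to -0.62, but with the trend on length and GC content removed it was at -0.58 (edgeR unadjusted p = 0.00444), just under 1.5-fold. Svep1, a matrix protein required for lymphatic vessels, had 2.92 and 3.11 CPM against 5.95 and 5.46 CPM (log2 fold change -0.92, and -0.98 without vehicle replicate 2). Ccbe1, which aids the processing of VEGF-C, had 2.01 and 1.19 CPM against 3.17 and 3.53 CPM (-1.05, and -0.97 without vehicle replicate 2), and was at -0.74 and not called without mCDC replicate 2. Ptprb, the endothelial phosphatase that acts on TEK, had 16.4 and 14.8 CPM against 20.5 and 33.8 CPM (-0.80, and -0.40 without vehicle replicate 2, where it was not called). The gene called higher was Shb, an adaptor of KDR, with 8.94 and 13.3 CPM against 6.33 and 4.98 CPM (0.97, standard error 0.25), and without mCDC replicate 2 it was at 0.66 (edgeR unadjusted p = 0.0519) and not called. Akt1 and Plxnd1, the most abundant of the list, had 0.19 and -0.24. The median of the list was -0.20, and -0.039 without vehicle replicate 2.

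Genes that act on or with Vegfa in hypoxia and metabolism showed no common direction. Of 19 tested, 1 was called higher and 1 lower, against 1.26% and 2.74% of all genes tested. The median log2 fold change of the list was 0.028. Ppargc1a, a coactivator that raises Vegfa in muscle, had 35.7 and 29.6 CPM with mCDCs against 60.3 and 45.6 CPM with vehicle. The log2 fold change of Ppargc1a was -0.70 (SE 0.18, edgeR adjusted p = 0.612). Both mCDC libraries lay below both vehicle libraries, as for 19.4% of all genes tested, while Vegfa overlapped. That call was lost without mCDC replicate 2 (-0.57), without vehicle replicate 1 (-0.48) and with the trend on length and GC content removed (-0.54), each under 1.5-fold with an unadjusted p below 0.05. Slc2a1, a glucose transporter induced in hypoxia, had 31.9 and 37.0 CPM against 21.2 and 17.8 CPM (0.82, standard error 0.17, edgeR adjusted p = 0.462) and stayed called with each library left out. The oxygen sensor Egln1 and the mitophagy gene Bnip3, the most abundant of the list, had 0.07 and 0.20.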

How the data were processed

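Soleus libraries of mdx mice, 2 mCDC and 2 vehicle, were compared, with groups and replicate numbers from the sample titles. The values are RSEM expected counts per gene symbol as the authors deposited them, not normalized, from single reads aligned by Bowtie 2 to UCSC transcripts; the submitters' processing notes list Bowtie2 2.1.0, RSEM 1.2.15 and mm10. The methods name an xGen library kit and the labels a TruSeq stranded kit; whether strand was used in counting is not given in the sources used here.

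After rounding to integers, counts were filtered with filterByExpr, TMM-normalized and fitted with edgeR 4.0.16 (quasi-likelihood F-test, legacy = FALSE) in R 4.3.3; p-values were adjusted over all 13652 genes tested. Alternatives were RLE size factors, DESeq2 1.42.0, legacy quasi-likelihood and likelihood ratio tests, no filter, at least 10 counts in every sample, a replicate block, removal of a smooth length and GC trend (mgcv 1.9.3, GENCODE M21) and leaving out each library. Leaving out libraries for the gene ratios, counting calls per list under each setting and counting identical rows once were added after seeing the data. The fit was tested on simulated data. Named genes are the members, all called genes of the lists and the 2 most abundant genes of each vessel, pathway and hypoxia list; Aplnr, Cldn5, Egfl7 and Myh4 were added after their values were seen. The members and gene lists were chosen with earlier results of these data known. 5 of the 39 endothelial genes also stood on another list.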

Additional observations from a re-analysis of the deposited data

How the results depend on the processing

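The count of members called lower was 1, and it was 2 with DESeq2 and with the likelihood ratio test, 0 with the replicate block, 0 with the length and GC trend removed, and from 0 to 5 with each library left out; 0 members were called higher under any of these. Over all genes, leaving out each library gave from 112 to 397 called higher, from 236 to 834 called lower and from 0 to 91 with an adjusted p under 0.05; that last count was 48 with DESeq2 and 66 with the likelihood ratio test. With the length and GC trend removed, higher genes made up 42.2% of calls instead of 31.5%, and the median of all genes was 0.033 instead of -0.0094. The endothelial list median ran from -0.96 to 0.10. With each library left out, the log2 fold changes of these genes, none called with all 4 libraries, changed sign: Vegfa (-0.016 to 0.32), Kdr (-0.66 to 0.26), Tek (-0.88 to 0.092), Angpt1 (-0.65 to 0.020), Cdh5 (-1.05 to 0.085), Akt1 (-0.0062 to 0.36), Egln1 (-0.088 to 0.26), Palmd (-0.43 to 0.19), Efnb2 (-0.77 to 0.025), Ephb4 (-0.66 to 0.26), Nr2f2 (-0.37 to 0.035), Fxyd6 (-0.19 to 0.032) and Synpo2 (-0.25 to 0.50). Of these, Kdr, Tek, Cdh5 and Ephb4 were called lower without vehicle replicate 1, Cdh5, Angpt1 and Efnb2 without mCDC replicate 1, and Angpt1 without vehicle replicate 2. Abcc9 was at 0.0087 with the length and GC trend removed. No member changed sign under the other 8 settings. The replicate numbers come from the titles only; deviations of same-numbered libraries correlated at -0.039, and the block gave 172 genes called higher and 308 lower against 172 and 374. The cause of each change was not tested. With 2 libraries per group, 1 of them left alone when another is left out is assumed to vary like the other group, and Vegfc and Angpt2 rest on few counts.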
